A study of Homo sapiens with 18 samples.

Results

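The 9 genes described here act below the B-cell receptor and were measured on 18 arrays of human lymphoma cell lines. They include RASGRP1, RASGRP2 and RASGRP3, which activate Ras or the related GTPase Rap1, and PRKCB and PRKCD, which encode protein kinases C beta and delta. The others are NFATC1 and NFATC2, calcium-regulated transcription factors, ITPR1, a receptor for inositol trisphosphate (IP3), and ITPKB, an IP3 kinase. The 9 genes were chosen by name as the calcium, RasGRP, PKC and NFAT branch of the pathway, and all 9 of 9 were found among the 18417 genes measured, each with 1 probe set annotated to its single symbol. These genes and the pathway list used below were chosen with earlier results of these data known. Their counts and medians set against all genes are therefore descriptive. Total RNA was hybridised to Affymetrix whole-transcript arrays, 3 for each of 6 groups. L428-PAX5+MAT is a derivative of the Hodgkin lymphoma line L428 in which mifepristone induces PAX5, the B-lineage commitment factor, given 0.25 nM mifepristone for 2 days and then 3 µM 5-aza-2′-deoxycytidine (5-aza-dC) for 3 days, with 640 nM trichostatin A (TSA) for the last 24 hours. L428-PAX5+M is the same derivative with mifepristone alone over 5 days. L428+MAT and L428+M are parental L428 with those same treatments. Raji and Namalwa are Burkitt lymphoma lines, each untreated, so line and mifepristone cannot be told apart where they are set against L428. Medium for L428-PAX5 also held 25 mM HEPES, and L428-PAX5 without mifepristone was not analysed here, so PAX5, the derivative line and the medium cannot be told apart where it is set against L428. The labels give L428-PAX5 as a single line. They do not tell if the 3 arrays of a group came from different cultures, and every p-value then reflects only array-to-array spread, which may be technical.

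When the B-cell receptor is engaged, phospholipase C gamma cleaves a membrane lipid into IP3 and diacylglycerol. IP3 opens receptors such as ITPR1 in the endoplasmic reticulum and releases calcium, which activates the phosphatase calcineurin and lets NFAT proteins enter the nucleus; ITPKB ends the IP3 signal by phosphorylating it. Diacylglycerol recruits RasGRP exchange factors such as RASGRP1 and RASGRP3, which load Ras with GTP, and protein kinase C, whose beta isoform links the receptor to NF-kB in B cells. Hodgkin cells descend from B cells and have lost the expression of many receptor signalling proteins. 5-aza-dC blocks the maintenance of DNA methylation, which in mammals lies on CpG pairs, and TSA inhibits histone deacetylases.

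Because the treatments act on CpG methylation and chromatin, the start regions of 6 of the 9 genes are shown first, as RefSeq gives them (build GRCh38.p14, 250 bases before to 50 after each annotated start, 5′ to 3′ on the gene's strand). Capitals mark CpG pairs. RASGRP1 and RASGRP3, which were low together in L428-PAX5+MAT, and PRKCB, which was lowest in L428-PAX5+M, make up one set. For RASGRP3, the first and the third of 4 annotated starts are given; the arrays do not tell which start was used.
RASGRP1, chr15:38564765-38565064, minus strand: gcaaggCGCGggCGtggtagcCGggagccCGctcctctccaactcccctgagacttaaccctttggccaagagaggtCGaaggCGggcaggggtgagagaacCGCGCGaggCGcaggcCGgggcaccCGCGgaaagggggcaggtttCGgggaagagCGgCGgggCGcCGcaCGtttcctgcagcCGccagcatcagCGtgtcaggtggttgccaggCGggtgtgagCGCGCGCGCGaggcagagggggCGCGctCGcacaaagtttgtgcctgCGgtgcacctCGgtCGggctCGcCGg
RASGRP3 start 1, chr2:33436098-33436397, plus strand: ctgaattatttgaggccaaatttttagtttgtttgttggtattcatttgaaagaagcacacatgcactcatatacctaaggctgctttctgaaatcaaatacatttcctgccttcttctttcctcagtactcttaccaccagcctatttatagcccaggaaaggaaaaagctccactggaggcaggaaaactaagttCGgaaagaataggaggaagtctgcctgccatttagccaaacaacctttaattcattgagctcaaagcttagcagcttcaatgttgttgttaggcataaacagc
RASGRP3 start 3, chr2:33476399-33476698, plus strand: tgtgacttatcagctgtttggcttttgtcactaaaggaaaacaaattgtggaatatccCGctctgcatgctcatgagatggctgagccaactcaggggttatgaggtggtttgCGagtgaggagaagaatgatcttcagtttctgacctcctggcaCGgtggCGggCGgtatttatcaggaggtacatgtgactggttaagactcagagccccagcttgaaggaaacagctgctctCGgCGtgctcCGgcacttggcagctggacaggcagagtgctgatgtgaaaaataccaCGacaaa
PRKCB, chr16:23835733-23836032, plus strand: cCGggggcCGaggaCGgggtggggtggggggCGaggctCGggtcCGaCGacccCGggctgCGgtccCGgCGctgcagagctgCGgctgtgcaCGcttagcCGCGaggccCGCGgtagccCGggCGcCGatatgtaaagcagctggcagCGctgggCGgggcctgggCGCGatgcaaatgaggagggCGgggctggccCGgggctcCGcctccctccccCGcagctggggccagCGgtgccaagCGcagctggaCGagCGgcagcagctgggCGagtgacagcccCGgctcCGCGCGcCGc

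RASGRP1 and PRKCB had 36 and 38 CpG pairs in these 300 bases, against a median of 14 over 35116 such windows of all genes, whereas the 4 windows of RASGRP3 had 1, 2, 9 and 2. Of all windows, 88.7% had no more CpG pairs than that of RASGRP1, and 11% no more than that of RASGRP3 start 1. Of the exchange-factor genes that were low in L428-PAX5+MAT, RASGRP1 thus had a CpG-rich start region and RASGRP3 had windows with fewer CpG pairs than the median. The PRKCB window held 1 octamer ATGCAAAT, the sequence read by Oct factors, which was present on either strand in 1.77% of all windows and in 1 of the 16 windows of the 9 genes. It also held 4 copies of the E-box CAGCTG, and 17.9% of all windows held at least 1. RASGRP3 start 3 held 3 copies of that E-box, and the RASGRP2 window and the first of the PRKCD windows held 1 each. The E-box was thus present in 4 of the 16 windows of the 9 genes.

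A second set comprises RASGRP2, NFATC1 and ITPKB, which were high together in Raji and Namalwa. NFATC1 is shown at the first of its 2 annotated starts.
RASGRP2, chr11:64745299-64745598, minus strand: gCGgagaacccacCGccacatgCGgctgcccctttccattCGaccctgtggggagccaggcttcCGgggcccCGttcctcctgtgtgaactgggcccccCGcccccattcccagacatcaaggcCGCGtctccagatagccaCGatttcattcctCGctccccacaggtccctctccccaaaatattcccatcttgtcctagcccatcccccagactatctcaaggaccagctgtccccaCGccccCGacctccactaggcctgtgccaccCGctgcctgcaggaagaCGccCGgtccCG
NFATC1 start 1, chr18:79395680-79395979, plus strand: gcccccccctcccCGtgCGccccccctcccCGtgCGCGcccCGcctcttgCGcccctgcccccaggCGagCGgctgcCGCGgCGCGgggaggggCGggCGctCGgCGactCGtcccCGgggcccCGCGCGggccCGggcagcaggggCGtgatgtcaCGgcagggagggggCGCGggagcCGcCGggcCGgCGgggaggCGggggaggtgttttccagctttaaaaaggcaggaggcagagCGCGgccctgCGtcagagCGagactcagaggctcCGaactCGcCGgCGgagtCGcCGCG
ITPKB, chr1:226739233-226739532, minus strand: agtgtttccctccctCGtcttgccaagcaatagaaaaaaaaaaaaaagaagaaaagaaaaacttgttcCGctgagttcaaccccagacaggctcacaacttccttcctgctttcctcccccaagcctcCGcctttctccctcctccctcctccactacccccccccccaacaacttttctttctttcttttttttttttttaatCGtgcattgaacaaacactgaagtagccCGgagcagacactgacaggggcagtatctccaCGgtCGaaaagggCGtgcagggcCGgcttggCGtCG

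These windows held 17, 43 and 11 CpG pairs. The NFAT core GGAAAA, searched on both strands, occurred once in the NFATC1 window and in none of the windows of RASGRP2 and ITPKB, against 24.0% of all windows with at least 1 copy. Over the 16 windows of the 9 genes it was found in 4, the others being RASGRP3 starts 1, 3 and 4 with 2, 1 and 2 copies. No match means only that these letters were not in this window.

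The deposited values are log2 signals from 2.24 to 14.64, with array medians between 6.52 and 6.70. PAX5 checked the labels of the L428-PAX5, Burkitt and parental L428 arrays, but not those of the drugs or of Raji against Namalwa. PAX5 stood at 12.67 to 12.85 on the 6 L428-PAX5 arrays, at 10.77 to 11.31 on the Burkitt arrays and at 6.70 to 8.64 on the 6 parental L428 arrays. The 8.64 was L428+M replicate 1, and the next parental array stood at 7.28. The SD of PAX5 in L428+M was 1.02. Of 6 measured B-cell markers (CD79A, CD79B, MS4A1, CD22, BLNK and POU2AF1), all 6 in Raji and 5 in Namalwa lay above 6.62, the median of all values, as did 0 in both L428-PAX5 groups and 1 (CD79B) in both parental L428 groups. All 6 Hodgkin markers (TNFRSF8, CCL17, FSCN1, CD274, TNFRSF9 and MSC) lay above that median in the 4 L428 groups, and 3 of 6 in each Burkitt line. None of 6 T-cell markers, and of 5 myeloid markers at most CSF1R, did so in any group; CSF1R did in L428-PAX5+MAT, L428-PAX5+M and L428+MAT. Replicates correlated across genes at r = 0.9628 or more, with the lowest values in L428-PAX5+MAT. In bulk RNA, fewer cells with a transcript and less of it per cell cannot be told apart. Below, a gene is called where limma's Benjamini-Hochberg adjusted p over all 18417 genes is below 0.05, changes are log2 differences of group means ± standard error (SE), and n is 3 arrays per group unless stated. The fit behind these calls takes 1 spread per gene over all 6 groups. It holds no block on the replicate number, which was run as an alternative. An SE therefore does not measure the spread of any single group.

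**Figure D1:**
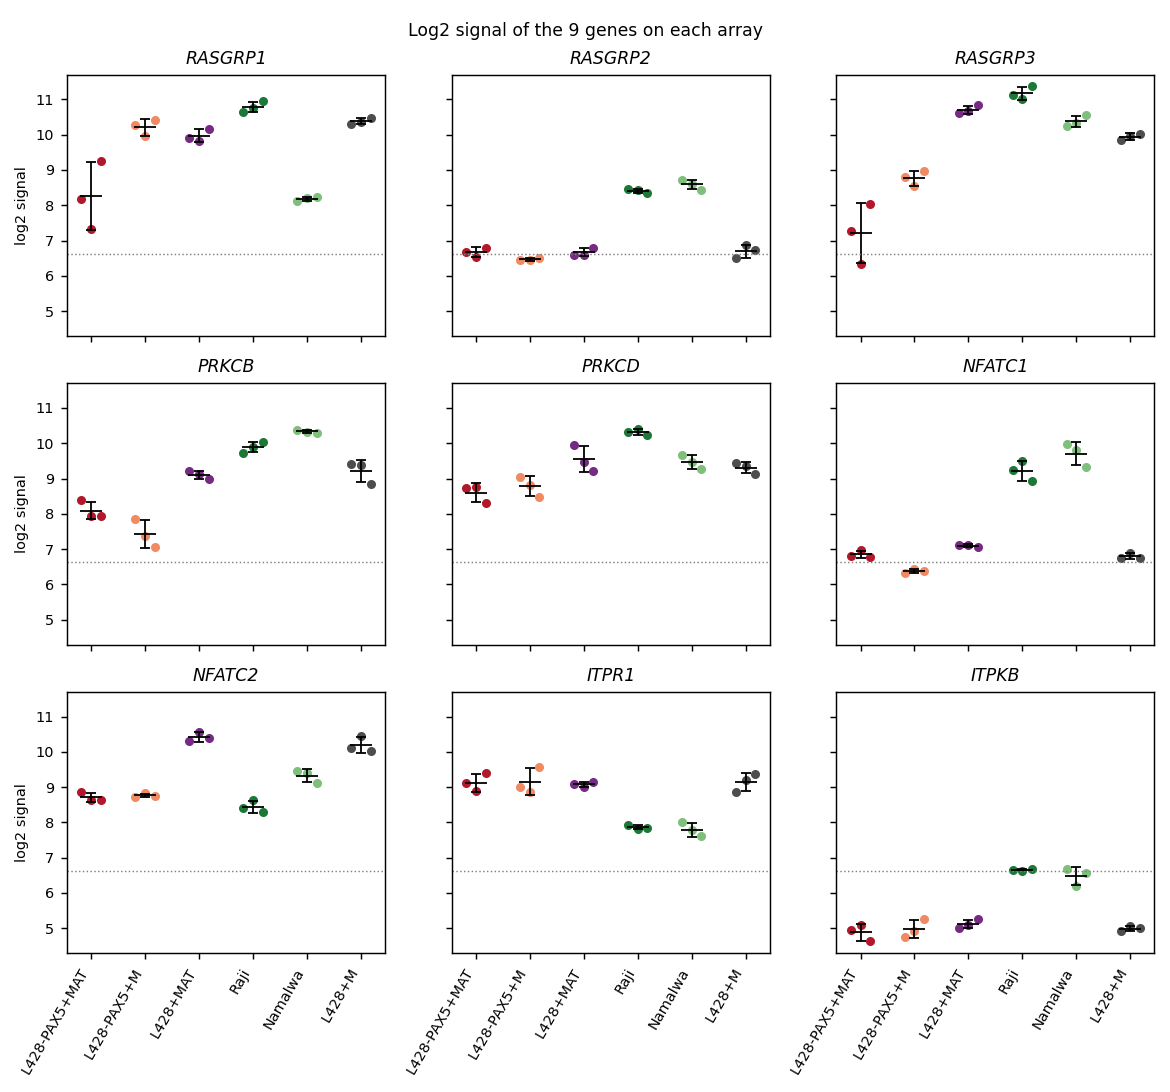
Log2 signal (vertical axis) of each of the 9 genes on each array, by group (horizontal axis, 3 points per group in the order of replicate numbers). Black bars are the group mean ± SD, and the dotted line is the median of all values, 6.62. RASGRP2, NFATC1 and ITPKB are high in both Burkitt groups, and RASGRP1 and RASGRP3 are spread widely in L428-PAX5+MAT, where replicate 2 is lowest.

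RASGRP1, the exchange factor best known for coupling the T-cell receptor to Ras, had log2 signals of 8.18, 7.33 and 9.26 in L428-PAX5+MAT, 10.28, 9.95 and 10.41 in L428-PAX5+M, 9.92, 9.82 and 10.17 in L428+MAT, and 10.30, 10.35 and 10.47 in L428+M. The Burkitt lines stood at opposite ends, with 10.65, 10.76 and 10.95 in Raji and 8.12, 8.21 and 8.23 in Namalwa. The L428-PAX5+MAT and Namalwa arrays lay below all others, and those groups overlapped, as did L428-PAX5+M with L428+M and with L428+MAT. L428-PAX5+M minus L428+M was not called (-0.16 ± 0.30, adjusted p = 0.809). The drugs lowered RASGRP1 in L428-PAX5 by 3.88-fold (-1.96 ± 0.30, adjusted p = 5.55e-05), and the change in parental L428 was not called (-0.40 ± 0.30, adjusted p = 0.591). That difference between lines was itself called (-1.55 ± 0.42, adjusted p = 0.0161), and it was negative in each set of equally numbered arrays, at -1.72, -2.09 and -0.85. The SD of RASGRP1 was 0.97 in L428-PAX5+MAT, the largest of any member in any group, and 0.06 to 0.24 in the other groups. The SE rests on a spread pooled over all 6 groups, so it understates the spread of L428-PAX5+MAT. Without replicate 2 of that group the interaction was -1.09.

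RASGRP2, also known as CalDAG-GEFI and an activator of the related GTPase Rap1, was higher in both Burkitt lines. Raji had 8.45, 8.42 and 8.33 and Namalwa 8.72, 8.60 and 8.44, against 6.50, 6.86 and 6.72 in L428+M. The highest L428 array of any treatment stood at 6.86 and the lowest Burkitt array at 8.33. It was 3.27-fold higher in Raji (1.71 ± 0.13, adjusted p = 2.11e-09) and 3.72-fold higher in Namalwa (1.90 ± 0.13, adjusted p = 4.62e-10) than in L428+M. The range in L428-PAX5+MAT was 6.52 to 6.80, in L428-PAX5+M 6.44 to 6.51, and in L428+MAT 6.60 to 6.80, all close to the median of all values. None of the 5 comparisons among L428 groups was called for RASGRP2, with changes between -0.22 and 0.22. The drug change in L428-PAX5 (0.19 ± 0.13, adjusted p = 0.284) was 0.21, 0.08 and 0.29 in the pairs of equal number and was called with array weights, its adjusted p running from 0.0474 to 0.551 over the alternatives.

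RASGRP3, the family member most often described in B cells, had the widest span of group means among the 9 genes, 3.95 log2 units. It read 7.28, 6.33 and 8.03 in L428-PAX5+MAT, 8.79, 8.53 and 8.96 in L428-PAX5+M, 10.60, 10.66 and 10.83 in L428+MAT, and 9.85, 9.96 and 10.03 in L428+M. Raji had 11.12, 11.01 and 11.37 and Namalwa 10.23, 10.33 and 10.56. No neighbouring groups overlapped, and from high to low they ran Raji, L428+MAT, Namalwa, L428+M, L428-PAX5+M and L428-PAX5+MAT. RASGRP3 was lower in L428-PAX5+M, set against L428+M (-1.19 ± 0.27, 2.27-fold, adjusted p = 0.00416), and the drugs lowered it further in L428-PAX5 (-1.55 ± 0.27, 2.92-fold, adjusted p = 0.000201). In parental L428 the drug change had the opposite sign, 0.75, 0.70 and 0.80 in the 3 pairs of equal number (0.75 ± 0.27, adjusted p = 0.147). This was called with the replicate number as a block (adjusted p = 0.0334), and its adjusted p ran from 0.00275 to 0.33 over the alternatives.

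The interaction for RASGRP3, that is the drug effect in L428-PAX5 less that in L428, was -2.30 ± 0.38 (adjusted p = 0.000601), and it was -2.26, -2.90 and -1.74 in the sets of equal number. The SD of RASGRP3 was 0.85 in L428-PAX5+MAT and 0.09 to 0.21 in the other groups, so the pooled SE understates the spread there. With drugs in both lines, RASGRP3 was 11.2-fold lower in L428-PAX5+MAT than in L428+MAT (-3.48 ± 0.27, adjusted p = 2.94e-08). It was 2.33-fold higher in Raji than in L428+M (1.22 ± 0.27, adjusted p = 0.00134), whereas the difference of Namalwa from L428+M was not called (0.43 ± 0.27, adjusted p = 0.273). Those ranges were apart, and with only these groups fitted the difference was called (adjusted p = 0.0368, and 0.0368 to 0.513 over the alternatives). Raji lay above Namalwa on every array (0.79 ± 0.27, adjusted p = 0.045), a call that was lost when any 1 of the 6 Burkitt arrays was left out, at changes of 0.69 to 0.89.

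PRKCB, the kinase that links the B-cell receptor to NF-kB, had 8.38, 7.95 and 7.94 in L428-PAX5+MAT, 7.85, 7.37 and 7.05 in L428-PAX5+M, 9.21, 9.14 and 8.97 in L428+MAT, and 9.41, 9.38 and 8.84 in L428+M. Burkitt values were 9.74, 9.90 and 10.03 in Raji and 10.39, 10.32 and 10.30 in Namalwa. The L428-PAX5 arrays thus lay below all others, while the parental groups overlapped each other. PRKCB was 3.45-fold lower in L428-PAX5+M, set against L428+M (-1.78 ± 0.19, adjusted p = 2.29e-06), with differences of -1.56, -2.01 and -1.79 in the pairs of equal number. The drugs raised it in L428-PAX5 by 1.59-fold (0.67 ± 0.19, adjusted p = 0.0104), a call lost without L428-PAX5+M replicate 3 (0.48) or L428-PAX5+MAT replicate 1 (0.52) or with only these groups fitted, and it was still 2.02-fold below L428+MAT (-1.01 ± 0.19, adjusted p = 0.000392). In parental L428 the drug change was -0.10 ± 0.19 (adjusted p = 0.877). The difference between the drug effects was 0.77 ± 0.27 (adjusted p = 0.0587). It was called with the replicate number as a block (adjusted p = 0.0176), with values of 0.74, 0.82 and 0.76 in the sets of equal number and adjusted p-values from 0.00034 to 0.15 over the alternatives.

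Against L428+M, PRKCB was higher in Raji (0.68 ± 0.19, 1.6-fold, adjusted p = 0.00902, not called once L428+M replicate 3 was left out, at 0.50) and in Namalwa (1.13 ± 0.19, 2.18-fold, adjusted p = 8.79e-05). Raji and Namalwa did not overlap. Their difference of -0.45 ± 0.19 was not called (adjusted p = 0.124), but was with the replicate number as a block (adjusted p = 0.047), within a range of 0.00543 to 0.322 over the alternatives.

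PRKCD, whose product restrains B-cell expansion and promotes tolerance in mice, had a span of group means of 1.73. Its values were 8.73, 8.77 and 8.30 in L428-PAX5+MAT, 9.04, 8.83 and 8.48 in L428-PAX5+M, 9.95, 9.48 and 9.21 in L428+MAT, 9.44, 9.35 and 9.13 in L428+M, 10.33, 10.40 and 10.24 in Raji, and 9.67, 9.47 and 9.27 in Namalwa. Raji lay above every other array, and the L428-PAX5 arrays below every other array, with overlap within each remaining neighbouring pair. PRKCD was 2.03-fold higher in Raji than in L428+M (1.02 ± 0.19, adjusted p = 0.000284) and 1.8-fold higher than in Namalwa (0.85 ± 0.19, adjusted p = 0.00269), whereas Namalwa minus L428+M was 0.17 ± 0.19 (adjusted p = 0.609). With drugs in both lines, L428-PAX5+MAT was lower than L428+MAT (-0.95 ± 0.19, 1.93-fold, adjusted p = 0.000712). Without drugs, L428-PAX5+M minus L428+M was -0.52 ± 0.19 (adjusted p = 0.0726). With the replicate number as a block that difference was called (adjusted p = 0.00407, and 0.00407 to 0.284 over the alternatives), at -0.39, -0.52 and -0.65 in the pairs.

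NFATC1, the NFAT member whose short isoform is induced by receptor signalling in lymphocytes, separated Burkitt from Hodgkin arrays. It had 9.24, 9.49 and 8.93 in Raji and 9.97, 9.80 and 9.33 in Namalwa, against 6.75, 6.90 and 6.74 in L428+M. All 12 L428 arrays lay between 6.33 and 7.12, near the median of all values. It was 5.36-fold higher in Raji (2.42 ± 0.16, adjusted p = 3.04e-10) and 7.49-fold higher in Namalwa (2.90 ± 0.16, adjusted p = 2.00e-11), the largest rises of any member over L428+M in these 2 comparisons. Raji was lower than Namalwa by a called amount with overlapping arrays (-0.48 ± 0.16, adjusted p = 0.0383). That call was lost without Namalwa replicate 1 (-0.35) or 2 (-0.43), without Raji replicate 1 (-0.49) or 3 (-0.34), with array medians subtracted, and with only the Burkitt arrays fitted.

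Among the L428 groups, NFATC1 had 6.81, 6.97 and 6.78 in L428-PAX5+MAT, against 6.33, 6.45 and 6.38 in L428-PAX5+M. The L428+MAT values were 7.12, 7.12 and 7.06. The drug-treated arrays of each line lay above its arrays with mifepristone alone. This was called in L428-PAX5 (0.47 ± 0.16, adjusted p = 0.0287), although not without L428-PAX5+M replicate 1 (0.44) or 3 (0.46) or L428-PAX5+MAT replicate 1 (0.49) or 2 (0.41), and not in L428 (0.30 ± 0.16, adjusted p = 0.398). The interaction was 0.16 ± 0.22 (adjusted p = 0.706). L428-PAX5+M minus L428+M was -0.41 ± 0.16 (adjusted p = 0.0913), -0.41, -0.45 and -0.36 in the pairs; it was called with the replicate number as a block (adjusted p = 0.0288, and 0.0288 to 0.251 over the alternatives).

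NFATC2, the NFAT member that is abundant in resting T cells, was highest in parental L428. It had 8.85, 8.64 and 8.63 in L428-PAX5+MAT, 8.72, 8.82 and 8.74 in L428-PAX5+M, 10.30, 10.57 and 10.41 in L428+MAT, and 10.11, 10.44 and 10.04 in L428+M. Raji had 8.41, 8.63 and 8.28, below the L428-PAX5 arrays, and Namalwa had 9.44, 9.40 and 9.11. All 6 parental L428 arrays lay at or above 10.04, and no other array lay above 9.44. Set against L428+M, NFATC2 was 2.7-fold lower in L428-PAX5+M (-1.43 ± 0.14, adjusted p = 1.04e-06), and 3.29-fold lower in L428-PAX5+MAT than in L428+MAT (-1.72 ± 0.14, adjusted p = 6.09e-08). It was also lower than in L428+M in Raji (-1.75 ± 0.14, 3.37-fold, adjusted p = 7.78e-09) and in Namalwa (-0.88 ± 0.14, 1.83-fold, adjusted p = 6.20e-05), and lower in Raji than in Namalwa (-0.88 ± 0.14, adjusted p = 0.000127). It was the one member whose difference between L428-PAX5+MAT and the mean of the Burkitt lines was not called (-0.17 ± 0.12, n = 3 against 6, adjusted p = 0.265). The drugs left it uncalled in L428-PAX5 (-0.06 ± 0.14) and in L428 (0.23 ± 0.14).

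ITPR1, the IP3-gated calcium channel, was lower in both Burkitt lines than on any L428 array. It had 7.93, 7.82 and 7.85 in Raji and 8.0, 7.78 and 7.61 in Namalwa, against 8.86, 9.20 and 9.39 in L428+M. The fall was 2.43-fold in Raji (-1.28 ± 0.18, adjusted p = 1.52e-05) and 2.55-fold in Namalwa (-1.35 ± 0.18, adjusted p = 7.13e-06). The other L428 groups ranged from 8.88 to 9.39 in L428-PAX5+MAT, from 8.85 to 9.58 in L428-PAX5+M and from 9.02 to 9.13 in L428+MAT. The means of L428+MAT and L428+M, which were furthest apart, differed by -0.07, the ranges of all 4 groups overlapped, and no comparison among them was called.

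ITPKB, which converts IP3 to IP4 and is needed for normal lymphocyte development in mice, had 6.66, 6.64 and 6.69 in Raji and 6.69, 6.20 and 6.57 in Namalwa, against 4.92, 5.06 and 5.00 in L428+M. The remaining L428 arrays ranged from 4.63 to 5.25, so the Burkitt arrays were all above all L428 arrays. It was higher in Raji (1.67 ± 0.16, adjusted p = 5.25e-08) and in Namalwa (1.5 ± 0.16, adjusted p = 2.27e-07). The L428+M arrays averaged 4.87 to 5.05 over the 6 T-cell markers, about the level of ITPKB there, and the deposited table holds no detection calls, so no fold is given. ITPKB was the dimmest member: its L428 levels lay well below the median of all values and its Burkitt levels about at it. No comparison among the L428 groups was called, with changes from -0.24 to 0.13.

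**Figure D2:**
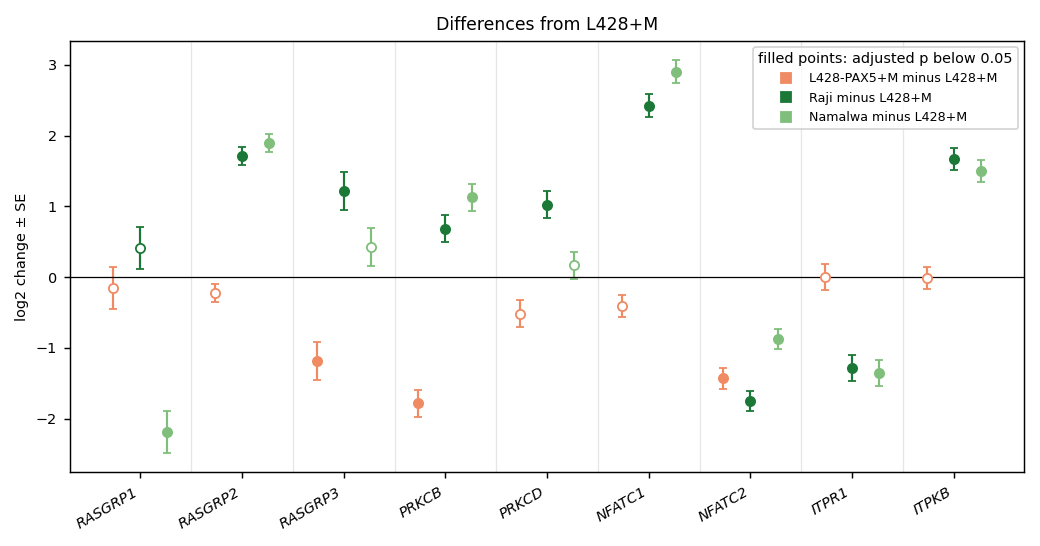
Log2 change ± SE (vertical axis) of each gene in L428-PAX5+M, Raji and Namalwa, each minus L428+M (n = 3 arrays per group; filled points have an adjusted p below 0.05). The 3 differences share the L428+M arrays. NFATC1 reaches 2.42 in Raji and 2.90 in Namalwa, while all 9 values for L428-PAX5+M lie at or below 0.

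Of the 9 genes, 3 (RASGRP3, PRKCB and NFATC2) were lower and none higher in L428-PAX5+M when set against L428+M. All 9 point estimates were at or below 0, from -1.78 to 0, and the median was -0.41, against -0.03 over all genes tested. Of all genes, 16.3% were called in this comparison, 6.55% lower and 9.72% higher. A block on the replicate number gave 5 members lower, PRKCD and NFATC1 being added. At an unadjusted p below 0.05, 5 were lower and 0 higher. The all-gene shares above hold for the main calls only, so these counts of 5 have no baseline here. RASGRP2, NFATC1 and ITPKB, each higher in both Burkitt lines than in L428+M, had differences of -0.22, -0.41 and -0.01 here, none called.

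Of 79 other genes of the pathway listed by branch, 68 were measured, and 11 were higher and 13 lower in L428-PAX5+M, relative to L428+M, with a median of -0.02. That was 35.3% of the list, against 16.3% of all genes (9.72% higher and 6.55% lower). Leaving out L428+M replicate 3 or L428-PAX5+M replicate 1 reduced the higher count to 7. The IP3 receptor gene ITPR3 (1.76 ± 0.19, adjusted p = 2.21e-06), the kinase gene PRKCE (1.65 ± 0.23, adjusted p = 5.44e-05) and the IP3 phosphatase gene INPP5A (0.90 ± 0.24, adjusted p = 0.0144) rose most. EGR1 and FOS, early response genes that receptor signals induce within minutes, fell most, EGR1 (-3.06 ± 0.40, adjusted p = 2.16e-05) and FOS (-2.02 ± 0.42, adjusted p = 0.00192), followed by the phosphoinositide phosphatase gene INPP4B (-1.14 ± 0.17, adjusted p = 0.000114). Of 6 early response genes, 2 were lower, 3 were not called and 1 was higher, MYC (0.48 ± 0.15, adjusted p = 0.0297), named after its value was seen. Among 9 other PKC and PKD kinases, 4 were higher and 1 lower, so PRKCB was lower in a comparison where PRKCE was higher.

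With 5-aza-dC and TSA, limma called none of the 9 genes in parental L428, against 4.84% of all genes (4.21% higher and 0.635% lower). At an unadjusted p below 0.05 there was 1, RASGRP3, which was also called with the replicate number as a block. In L428-PAX5 the same drugs lowered 2 (RASGRP1 and RASGRP3) and raised 2 (PRKCB and NFATC1), while 33.7% of all genes were called, 19.4% lower and 14.2% higher. The count of 2 raised was 1 without L428-PAX5+M replicate 1 or L428-PAX5+MAT replicate 2, and 0 without L428-PAX5+M replicate 3 or L428-PAX5+MAT replicate 1. The drug effect differed between the lines by a called amount for 2 members, RASGRP1 and RASGRP3, both more negative in L428-PAX5, where 16.2% of all genes were called, 10.6% in that direction and 5.64% in the other. No member had a called positive interaction. At an unadjusted p below 0.05 there was 1, PRKCB, which was called with the replicate number as a block. PRKCB was also called without L428+M replicate 3, L428-PAX5+M replicate 1 or L428-PAX5+MAT replicate 3. The all-gene shares in this paragraph hold for the main calls, so its counts at an unadjusted p have no baseline here.

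**Figure D3:**
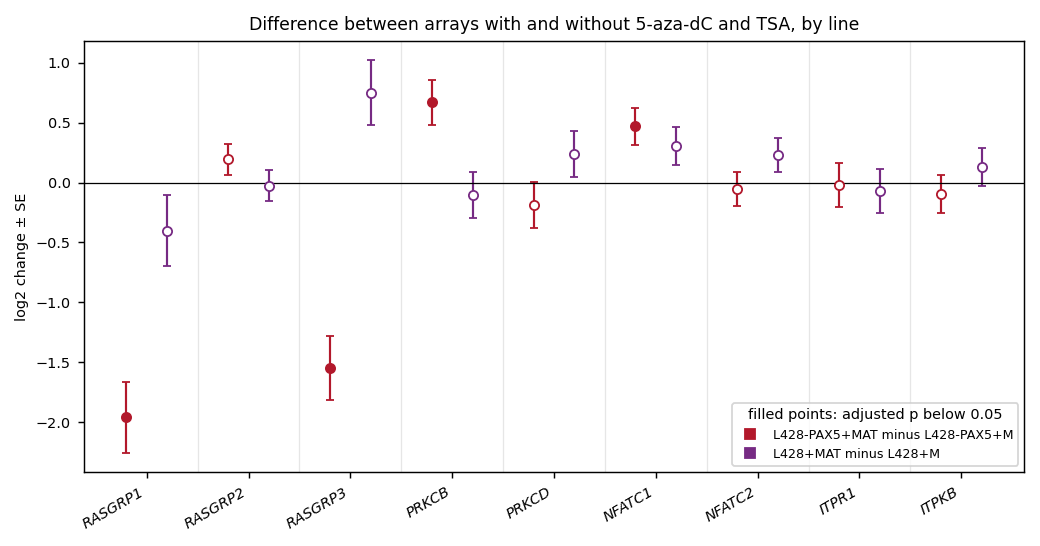
Log2 change ± SE (vertical axis) between arrays with and without 5-aza-dC and TSA, in L428-PAX5 (L428-PAX5+MAT minus L428-PAX5+M) and in parental L428 (L428+MAT minus L428+M), n = 3 arrays per group. RASGRP1 and RASGRP3 lie at -1.96 and -1.55 in L428-PAX5, and at -0.40 and 0.75 in L428.

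In the pathway list the drugs raised 13 and lowered 19 of 68 genes in L428-PAX5 (median -0.04), and raised 3 and lowered 1 in L428 (median 0.03). These were 47.1% and 5.88% of the list, against 33.7% and 4.84% of all genes. With array weights the L428-PAX5 counts were 23 higher and 24 lower, with 9532 genes called, against 6204 without weights. EGR1 (2.83 ± 0.40, adjusted p = 2.68e-05), FOS (2.18 ± 0.42, adjusted p = 0.000494) and the plasma-membrane calcium pump gene ATP2B4 (1.74 ± 0.16, adjusted p = 2.20e-07) rose most in L428-PAX5. The calcineurin subunit gene PPP3CC (-1.92 ± 0.32, adjusted p = 0.000128), PRKCH (-1.63 ± 0.15, adjusted p = 2.20e-07) and PRKCA (-1.21 ± 0.14, adjusted p = 3.40e-06) fell most. The SD of PPP3CC was 1.02 in L428-PAX5+MAT and 0.04 to 0.28 in the other groups, so its pooled SE understates the spread there. Changes of single pathway genes were not followed over the alternatives. EGR1 averaged 10.90 in L428-PAX5+MAT and 8.07 in L428-PAX5+M, and 11.45 in L428+MAT and 11.13 in L428+M, so its drug effect was larger in L428-PAX5 (interaction 2.51 ± 0.56, adjusted p = 0.00526).

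In L428 the called pathway genes were the calcineurin regulator gene RCAN2 (0.70 ± 0.18, adjusted p = 0.0301), the kinase gene PRKD1 (0.67 ± 0.19, adjusted p = 0.0475), ATP2B4 (0.59 ± 0.16, adjusted p = 0.0348) and PRKCQ, the PKC theta gene of T-cell signalling (-0.95 ± 0.14, adjusted p = 0.00016). Leaving out 1 array left 1 of the 3 higher calls for L428+MAT replicate 2 or 3 and for L428+M replicate 2, and 0 for L428+MAT replicate 1. A block on the replicate number gave 5 higher and 2 lower, with 1592 of all genes called, against 892 without it. Interactions were called for 4 pathway genes with a positive and 11 with a negative sign. That was 22.1% of the list, against 16.2% of all genes (5.64% positive and 10.6% negative). FOS (2.04 ± 0.59, adjusted p = 0.0237) and ATP2B4 (1.15 ± 0.22, adjusted p = 0.00195) followed EGR1 on the positive side, and PPP3CC (-2.0 ± 0.45, adjusted p = 0.00548), the inositol phosphatase gene INPP1 (-1.52 ± 0.43, adjusted p = 0.0204) and PRKCH (-1.50 ± 0.21, adjusted p = 0.00015) led the negative side. In L428-PAX5+MAT the SD was 1.02 for PPP3CC and 0.82 for INPP1, so their pooled SEs understate the spread there. The positive count was 2 without L428+M replicate 1, L428-PAX5+M replicate 3 or L428+MAT replicate 2 or 3, and 7 without L428-PAX5+MAT replicate 3 or with the replicate number as a block. With that block 4730 of all genes were called, against 2990 without it. The negative count was 6 without L428-PAX5+M replicate 1 or L428-PAX5+MAT replicate 2, and 5 without L428+MAT replicate 1.

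With drugs in both lines, L428-PAX5+MAT had 5 of the 9 genes lower than L428+MAT (RASGRP1, RASGRP3, PRKCB, PRKCD and NFATC2) and none higher. Of all genes, 32% were called, 17.7% lower and 14.3% higher. The member counts were the same at an unadjusted p below 0.05, for which no all-gene share is given. The median change of the 9 genes was -0.95, against 0 over all genes. In the pathway list 10 were higher and 16 lower. With array weights these were 23 and 24, with 11176 genes called, against 5898 without weights. Those with the largest rises were the early response gene NR4A1 (1.47 ± 0.24, adjusted p = 0.000112), INPP5A (1.41 ± 0.24, adjusted p = 0.000171) and ITPR2 (1.14 ± 0.16, adjusted p = 2.13e-05). PPP3CC (-2.43 ± 0.32, adjusted p = 1.06e-05), HOMER2, a scaffold that competes with calcineurin for NFAT (-1.82 ± 0.18, adjusted p = 5.86e-07), and INPP4B (-1.77 ± 0.17, adjusted p = 3.86e-07) had the largest falls. The pooled SE of PPP3CC again understates its spread in L428-PAX5+MAT (SD 1.02).

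Against L428+M, Raji had 6 members higher and 2 lower, leaving RASGRP1 uncalled (0.41 ± 0.30, adjusted p = 0.353), while 31.2% of all genes were called, 15.7% higher and 15.6% lower. Namalwa had 4 higher and 3 lower, leaving RASGRP3 and PRKCD uncalled, while 33.9% of all genes were called, 18.4% higher and 15.5% lower. RASGRP2, PRKCB, NFATC1 and ITPKB were higher and NFATC2 and ITPR1 lower in both lines, which were compared with the same 3 L428+M arrays. Of the 9 genes, RASGRP1 set the Burkitt lines furthest apart: it was 4.55-fold lower in Namalwa than in L428+M (-2.19 ± 0.30, adjusted p = 6.81e-06) and 6.06-fold higher in Raji than in Namalwa (2.60 ± 0.30, adjusted p = 1.69e-06). In that comparison of Raji with Namalwa, 3 members were higher and 2 lower, where 19.2% of all genes were called, 7.74% higher and 11.5% lower, and the lower count was 1 without Namalwa replicate 1 or 2 or Raji replicate 1 or 3. The higher count was 2 whichever of the 6 arrays was left out.

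The pathway list had 18 higher and 21 lower of 68 in Raji, and 23 higher and 15 lower in Namalwa, relative to L428+M. ORAI2, a subunit of the store-operated calcium channel, stood highest in both, by 20-fold in Raji (4.32 ± 0.33, adjusted p = 2.51e-09) and 18.8-fold in Namalwa (4.23 ± 0.33, adjusted p = 3.37e-09). It was followed in both by INPP5A (3.40 ± 0.24 in Raji and 3.66 ± 0.24 in Namalwa, adjusted p = 1.10e-09 and 3.81e-10). In L428+M, ORAI2 and INPP5A averaged 6.49 and 6.30, below the median of all values, and the deposited values hold no detection calls. The folds of ORAI2 therefore rest on an L428+M level that may be background. The endoplasmic calcium pump gene ATP2A3 came next in Raji (1.66 ± 0.24, adjusted p = 1.41e-05), and the Ras and Rap GTPase-activating gene RASA3 in Namalwa (2.73 ± 0.12, adjusted p = 1.28e-12). Calcium release and entry genes had 7 of 13 higher and 2 lower in Raji, and 9 of 13 higher and none lower in Namalwa. Calmodulin, calcineurin and NFAT genes had 1 of 16 higher and 7 lower in Raji, and 3 of 16 higher and 5 lower in Namalwa. The shares of all genes were 15.7% higher and 15.6% lower in Raji, and 18.4% higher and 15.5% lower in Namalwa. Counts of the other branches are not given here.

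HOMER2 (-4.29 ± 0.18), PRKCA (-3.27 ± 0.14) and INPP4B (-2.75 ± 0.17) were furthest below L428+M in Raji, with adjusted p-values of 7.35e-13, 7.75e-13 and 1.81e-10. In Namalwa these were INPP4B (-4.77 ± 0.17), HOMER2 (-4.40 ± 0.18) and EGR1 (-3.30 ± 0.40), with 7.11e-14, 4.69e-13 and 1.56e-06. Between the Burkitt lines, 7 pathway genes were higher in Raji, led by EGR1 (2.74 ± 0.40, adjusted p = 3.49e-05), the calcineurin regulator gene RCAN3 (2.38 ± 0.16, adjusted p = 8.11e-10) and INPP4B (2.03 ± 0.17, adjusted p = 3.34e-08). Another 18 were lower, led by ITPR2 (-2.88 ± 0.16, adjusted p = 6.34e-11), RASA3 (-2.66 ± 0.12, adjusted p = 4.90e-12) and the diacylglycerol kinase gene DGKE (-2.02 ± 0.15, adjusted p = 6.79e-09). The higher count was 13 with the replicate number as a block, and 12 with array medians subtracted. No all-gene share is given here for these alternatives. In the main fit, 36.8% of the list was called between Raji and Namalwa, against 19.2% of all genes.

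**Figure D4:**
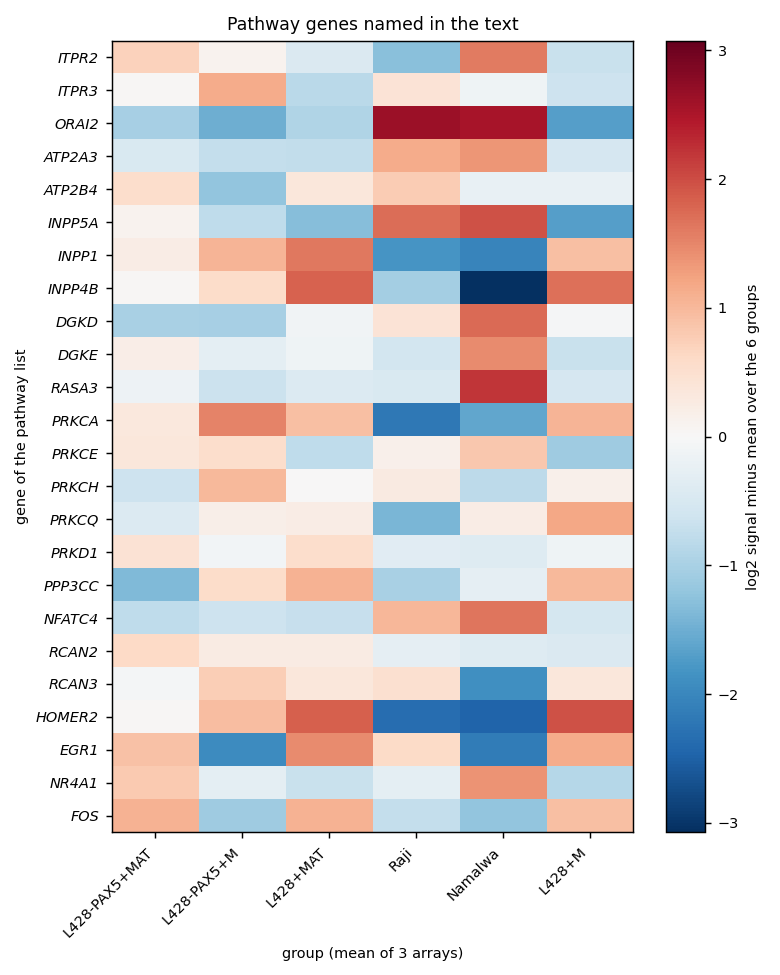
Mean log2 signal of 3 arrays per group (columns) for 24 pathway genes (rows), namely up to 3 largest called rises and 3 largest called falls in each comparison. Each is shown as the difference from that gene's mean over the 6 groups. Red is above and blue below that mean. ORAI2 and INPP5A are high and HOMER2 low in both Burkitt groups, and EGR1 is low in L428-PAX5+M and Namalwa.

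L428-PAX5+MAT, with both PAX5 and the drugs, was finally set against the mean of Raji and Namalwa (n = 3 against 6 arrays). Of the 9 genes 7 were lower, 1 was higher (ITPR1, 1.30 ± 0.16, adjusted p = 1.35e-06) and NFATC2 was not called, while 49.5% of all genes were called, 26.5% lower and 23.1% higher. The largest falls were those of RASGRP3 (-3.56 ± 0.23, 11.8-fold, adjusted p = 2.69e-10), NFATC1 (-2.61 ± 0.14, 6.09-fold, adjusted p = 1.17e-11) and PRKCB (-2.02 ± 0.16, 4.05-fold, adjusted p = 5.90e-09). RASGRP2 (-1.83 ± 0.11), ITPKB (-1.69 ± 0.13), PRKCD (-1.30 ± 0.16) and RASGRP1 (-1.23 ± 0.26) were lower too. For RASGRP1 the L428-PAX5+MAT arrays overlapped those of Namalwa, and the difference was -0.77 without L428-PAX5+MAT replicate 2.

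In the pathway list this comparison had 21 higher and 27 lower, 70.6% of the list against 49.5% of all genes. HOMER2 (2.42 ± 0.16, adjusted p = 2.96e-10), PRKCA (2.22 ± 0.12, adjusted p = 2.18e-11) and INPP1 (2.16 ± 0.26, adjusted p = 1.12e-06) were furthest above the Burkitt mean. For INPP1 the SD in L428-PAX5+MAT was 0.82, which its pooled SE understates. ORAI2 (-3.60 ± 0.28, adjusted p = 3.51e-09), NFATC4 (-2.10 ± 0.11, adjusted p = 1.31e-11) and the diacylglycerol kinase gene DGKD (-2.08 ± 0.13, adjusted p = 1.58e-10) were furthest below the Burkitt mean.

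Across the 18 arrays, RASGRP2, NFATC1 and ITPKB ran together, with Pearson's r of 0.99 for RASGRP2 and NFATC1, 0.96 for RASGRP2 and ITPKB and 0.95 for NFATC1 and ITPKB. ITPR1 ran opposite to each, with r of -0.92, -0.93 and -0.92. These coefficients describe 6 groups of 3 arrays and follow the split between Burkitt and Hodgkin lines. RASGRP1 and RASGRP3 correlated at 0.53, and NFATC1 and NFATC2 at -0.24. Among 7417 other genes whose group means spanned at least 1 log2 unit, the genes most like RASGRP2 over the 18 arrays were CD84 (r = 0.99), SYK (0.99) and SUSD3 (0.99). For NFATC1 they were LHFPL6 (0.99), SLC43A1 (0.99) and MME (0.99), and for ITPKB they were POU2AF1 (0.98), TNS3 (0.98) and WDFY4 (0.98).

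The genes that followed RASGRP3 most closely were TRANK1 (0.96), WIPF1 (0.96) and TMEM123 (0.95), and those for RASGRP1 were DEK (0.95), MRPL45 (0.95) and APOBEC3D (0.93). PRKCB was closest to ENDOD1 (0.96), GGA2 (0.96) and PNMA1 (0.96), and PRKCD to CDCA4 (0.94), LINC03040 (0.93) and LAMTOR4 (0.93). NFATC2 was matched by TBX19 (0.97), TOX2 (0.95) and HERPUD1 (0.94), and ITPR1 by ZNF518B (0.97), SIX4 (0.97) and ZYG11A (0.97).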

How the data were processed

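The authors deposited 1 table of log2 expression values for 33297 probe sets and 18 arrays. Partek and RMA are the tools in the submitters' processing notes; their order and versions are not given in the sources used here. Of these probe sets, 19460 carry 1 gene symbol in the platform annotation, 1754 carry several and 12083 were not listed and are unnamed here; the brightest on average was kept for each of 769 genes with more than 1, leaving 18417 genes. Groups and replicate numbers follow the labels. For the 3 arrays of L428-PAX5+MAT, the title reads L425-PAX5 but the cell line entry L428-PAX5, which was used. No source used here names the arrays' build. Coordinates are those of RefSeq's GRCh38.p14 table, in which all 9 genes matched by symbol.

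All 18 arrays were fitted with limma 3.58.1 (R 4.3.3, lmFit and eBayes, 1 mean per group, degrees of freedom 12 residual and 6.08 prior). Tests were two-sided; p-values were adjusted by Benjamini-Hochberg across the 18417 genes within a comparison, and called below 0.05. The script was tested on simulated data, in which arrays were independent and each gene had the same spread in every group. That test does not cover the wider spread in L428-PAX5+MAT or correlated arrays of equal number. The remaining steps and plots used Python 3.11.15 (matplotlib 3.10.9, numpy 2.4.6, pandas 2.3.3). The number of arrays limits the precision.

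Deviations of equally numbered arrays from their group means correlated at 0.2729 to 0.6549 in each pair of the 4 L428 groups and at 0.325 to 0.5414 between Raji and Namalwa, so the numbers were taken to pair the arrays there, from the data and not from the labels. Between L428+M and the Burkitt lines the lowest was -0.0142, and there they were not. The main fit did not use the pairing, so the main calls treat all arrays as unpaired. Alternatives were the mean of all probe sets, array medians subtracted, a filter on dim genes, only the groups compared, a replicate block, eBayes with trend and robust, array weights, and each array left out in turn. The replicate block took a common term for each replicate number over all groups together. It therefore also tied L428+M arrays to Burkitt arrays, where pairing was not taken. A block confined to the paired groups was not run. Named are all 9 members, PAX5, up to 3 called rises and 3 called falls of the pathway list per comparison, and per member the 3 genes with the highest Pearson's r. Members and lists were chosen with earlier results of these data known. Of the pathway list, 11 of 79 genes were not analysed here because no single-symbol probe set was matched.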

Additional observations from a re-analysis of the deposited data

Results flagged for a closer look

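The response to 5-aza-dC and TSA differed between the lines, by the test of the difference itself, for 2 of the 9 genes, where 16.2% of all genes were called and 10.6% in that direction. For RASGRP1 the drug effect in L428-PAX5 less that in L428 was -1.55 ± 0.42 on the log2 scale (adjusted p = 0.0161, and 3.39e-05 to 0.0488 over the alternatives), negative in 3 of 3 sets of equally numbered arrays. For RASGRP3 it was -2.30 ± 0.38 (adjusted p = 0.000601, and 2.61e-07 to 0.00464 over the alternatives), also negative in 3 of 3, with drug effects of opposite sign in the lines (-1.55 in L428-PAX5 and 0.75 in L428, the second not called). In both genes L428-PAX5+MAT replicate 2 was lowest and replicate 3 highest of that group, and the lowest correlation across genes between replicates of any group was found in it (r = 0.9628). Without replicate 2 the differences were -1.09 and -1.86, and without replicate 3 they were -2.06 and -2.70. The SEs rest on a spread pooled over all 6 groups and understate that of L428-PAX5+MAT for both genes (SD 0.97 and 0.85). Whether the spread within that group and the size of the change share a source was not tested.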

How the results depend on the processing

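Of 81 changes tested for the 9 genes, 42 were called. All 582 values of these 42 under the alternatives kept their direction, 562 kept the call, and 37 of the 42 changes were called throughout. Direction could move only with array medians subtracted, array weights or an array left out. The other alternatives cannot alter a member's log2 change, each member having 1 probe set, so those directions were fixed in advance. The replicate block changed these counts: members lower in L428-PAX5+M became 5; for the drugs in L428, 1 member was higher, the pathway list had 5 higher and 2 lower, and all genes called became 1592; the interaction had 1 member and 7 pathway genes higher and 4730 genes called; Raji minus Namalwa had 13 pathway genes higher. With array medians subtracted, the drugs in L428 had 1 pathway gene higher, the interaction 1 member higher, and Raji minus Namalwa 1 member lower and 12 pathway genes higher; RASGRP2 in L428-PAX5+MAT minus L428+MAT became 0.0092. The filter on dim genes gave 1 member higher in the interaction. With only the groups compared, the drugs in L428 had 1 member and 0 pathway genes higher and 593 genes called, the drugs in L428-PAX5 1 member higher, the interaction 2 pathway genes higher and 6 lower, and Raji minus Namalwa 13 higher. Array weights gave 5 members lower in L428-PAX5+M; for the drugs in L428, 1 member higher, 7 pathway genes higher and 4 lower, and 2551 genes called; for the drugs in L428-PAX5, 23 pathway genes higher, 9532 genes called, and NFATC2, ITPR1 and ITPKB at 0.0705, 0.0865 and 0.0273; for L428-PAX5+MAT minus L428+MAT, 23 pathway genes higher, 11176 genes called and RASGRP2 at 0.054; for the interaction, 1 member and 13 pathway genes higher and 5965 genes called; and for Raji minus Namalwa, 13 pathway genes higher and 5747 genes called. The cause of these shifts was not tested.

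Leaving out 1 array at a time gave 7 to 11 pathway genes higher in L428-PAX5+M, 0 to 2 for the drugs in L428, and 2 to 7 higher and 5 to 12 lower in the interaction. Members higher ran from 0 to 1 in the interaction and from 0 to 2 for the drugs in L428-PAX5, and members lower from 1 to 2 in Raji minus Namalwa. Sign changes were seen in uncalled changes only: ITPR1 (-0.2175 to 0.149) and ITPKB (-0.1446 to 0.0993) in L428-PAX5+M minus L428+M; RASGRP2 (-0.1246 to 0.0574) and ITPR1 (-0.2168 to 0.0443) for the drugs in L428; ITPR1 (-0.17 to 0.1965) and ITPKB (-0.2061 to 0.0378) for the drugs in L428-PAX5; ITPR1 in the interaction (-0.096 to 0.2705) and in Raji minus Namalwa (-0.0226 to 0.1735); RASGRP2 (-0.0698 to 0.069) and ITPR1 (-0.0786 to 0.1773) in L428-PAX5+MAT minus L428+MAT.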
